A study of Mus musculus with 4 samples.

Results

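The transforming growth factor beta (TGF-beta) ligands and receptors of mouse Achilles tendon are described here through 9 genes, taken from the 33696 genes of the count matrices by their symbols. They are the ligands Tgfb1, Tgfb2 and Tgfb3, the receptors Tgfbr1, Tgfbr2 and Tgfbr3, the feedback inhibitors Smad7 and Skil, and Tgfbi, a secreted matrix protein named for its induction by the pathway. The genes were chosen for their place in the pathway and not by a measured value, and each symbol matched a single row in all 4 libraries. The tendon, which joins the calf muscles to the heel, was digested and the RNA of its single cells was counted in droplets. A neonate control library came from uninjured mice at postnatal day 3 (P3) and a neonate injury library from injured mice given the same age. An adult control and an adult injury library came from mice 6 to 8 weeks old, without and with tendon injury. No genotype, strain or drug is named for any group, and the labels do not give the sex or number of mice, the time from injury to harvest, or whether the age is that at injury or at harvest. Each group held 1 library, so the groups could not be tested against each other and the differences below lack a replicate check.

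TGF-beta ligands are secreted bound to their own propeptide and to latent TGF-beta binding proteins, and are held inactive in the matrix until integrins, proteases or thrombospondin release them. The active dimer binds the type II receptor, encoded by Tgfbr2, which phosphorylates the type I receptor, encoded by Tgfbr1, and this in turn activates SMAD2 and SMAD3. Betaglycan, encoded by Tgfbr3, is a coreceptor that presents the ligands, above all TGF-beta 2, and whose shed form can sequester them. In tendon the pathway is known for its part in forming and keeping tenocytes and in scar formation after injury.

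The 3 ligand genes differed in where they were transcribed, so the 250 bases upstream of the annotated start are shown for Tgfb1, which was highest in immune cells, and for Tgfb2, which was highest in cells of the fibroblast lineage and other mesenchymal cells. Both are RefSeq promoter sequences of build GRCm38.p6, written 5′ to 3′ on the strand of the gene, while the counts were made against GRCm39. Capitals mark the TATA box, searched as TATAAA, on either strand. They also mark the GC box, searched as GGGCGG, whose reverse complement reads CCGCCC.
Tgfb1, chr7:25686752-25687001, plus strand: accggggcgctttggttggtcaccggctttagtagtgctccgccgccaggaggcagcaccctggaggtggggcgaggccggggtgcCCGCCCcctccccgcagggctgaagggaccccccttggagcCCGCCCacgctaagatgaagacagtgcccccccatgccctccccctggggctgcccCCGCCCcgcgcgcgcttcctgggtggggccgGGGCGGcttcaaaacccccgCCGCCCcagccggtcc
Tgfb2, chr1:186705990-186706239, minus strand: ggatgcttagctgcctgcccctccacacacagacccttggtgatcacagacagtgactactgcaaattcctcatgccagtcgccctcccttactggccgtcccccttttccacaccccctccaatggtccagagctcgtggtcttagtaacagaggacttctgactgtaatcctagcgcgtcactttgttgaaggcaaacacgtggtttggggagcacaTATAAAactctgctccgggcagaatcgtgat
The Tgfb1 window held 5 GC boxes, 1 forward and 4 reverse, and no TATAAA. In the Tgfb2 window there was 1 TATAAA, starting 31 bases before the start, and no GC box. Of 32851 promoter windows of the same length, 12.4% held a TATAAA and 32.7% a GGGCGG. The letters CAGAC, the SMAD-binding element, were in the Tgfb2 window at 2 places and in the Tgfb1 window at none, against 42.2% of all windows. TGACTCA, the AP-1 site, was in neither window and in 4.46% of all. All motifs were searched on both strands. These matches describe the sequence only, and windows were used for 5 of the 9 genes.

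After filtering, 32694 cells remained of 38780 barcodes, from 4440 in the adult injury to 12941 in the neonate injury library, with median depths of 5541 to 10333 unique molecular identifiers (UMIs) per cell. Cells were put in a class when they held enough of the class's 6 marker genes. This gated 28190 cells and left 13.8% without a class. Levels are UMIs per 1e+06 UMIs (CPM), taken over all cells of a class and library together, for classes of at least 50 cells. Their brackets are exact 95% intervals that cover counting error only. Of the 4 classes with at least 100 cells in every library, the fibroblast lineage held 4786 and 7495 cells in the neonate control and injury libraries and 3424 and 1738 in the adult ones. Runs of 4 values below keep that order of libraries. Macrophages numbered 303, 1247, 166 and 1158, endothelial cells 354, 910, 785 and 334, and mural cells, the pericytes and smooth muscle of vessels, 555, 358, 338 and 107. Markers go against a simple reading of the libraries in 2 ways. In the neonate control 84.4% of cells held Y-linked UMIs and no Xist, while 72.4%, 91.9% and 85.6% of cells in the other libraries, in the same order, held Xist and no Y-linked UMI, so that sex cannot be told apart from age between the controls. The neonate injury library held 16.0% of cells of the former kind, and its values were also taken from those cells alone. The 6 myofibre markers summed to 482 CPM in fibroblasts of the neonate control against 58.8, 10.5 and 11.3 in the other libraries, with all 6 detected in each, and their part in the results was not tested. Pairs of libraries shared 3 to 49 barcodes.

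Tgfb1, the ligand best known from platelets and immune cells, was highest in macrophages in each of the 4 libraries. Its level there was 243 CPM [227, 259] without and 372 [357, 387] with injury in neonates, and 248 [227, 271] without and 320 [309, 331] with injury in adults. In the neonate injury library dendritic cells at 327 [277, 385] and T or NK cells at 272 [202, 357] came next, and in the adult injury library dendritic cells at 282 [238, 331]. Each of these intervals overlaps that of the class above it in the order. Of the 137 dendritic-gated cells of all libraries, 73 held only the minimum number of markers. None fell in a cluster that was called dendritic. Endothelial cells held 128, 115, 130 and 194 CPM. Lymphatic endothelial cells were above them where shown. They held 204 CPM [185, 224] in adult controls, rank 2 of 7 classes, and 187 [157, 221] in injured neonates, rank 4 of 9. The fibroblast lineage stood low, at 19.1 [18.0, 20.3], 30.1 [28.6, 31.7], 74.5 [72.0, 77.2] and 67.0 [64.4, 69.7]. Its neonate control value overlapped that of Schwann cells (18.5) and was above that of myogenic progenitors, the muscle stem cells and myoblasts, at 2.56 [1.36, 4.38].

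Between macrophages and the fibroblast lineage, Tgfb2 and Tgfb3 had the reverse order to Tgfb1. Not every class followed this contrast. Tgfb2, which has a known role in embryonic tendon, stood in the fibroblast lineage at 215, 210, 198 and 284 CPM over the 4 libraries. Mural cells held 245, 178, 99.5 and 168 CPM, and myogenic progenitors 241 and 217 in the neonate libraries and 146 in the adult control. In the neonate control these 2 classes were above the fibroblast lineage by more than their counting intervals, and elsewhere the fibroblast lineage was highest or overlapped the highest. Endothelial cells held 63.0, 48.8, 23.3 and 45.0 CPM of Tgfb2. Lymphatic endothelial cells of adult controls held 148 [132, 165], rank 2 of 7 classes, and those of injured neonates 78.0 [59.2, 101], rank 4 of 9. These ranks were the same as for Tgfb1, so this class did not separate the 2 ligands. Tgfb3, the third isoform, was at 58.8 [56.8, 60.9], 122 [119, 125], 89.1 [86.3, 92.0] and 120 [117, 124] CPM in the fibroblast lineage and at 77.9, 68.8, 97.1 and 87.2 in mural cells. Lymphatic endothelial cells held 59.2 and 49.5 CPM of it in the 2 libraries with enough of these cells, while other endothelial cells stayed between 5.53 and 7.90. Macrophages held between 2.54 and 6.54 CPM of Tgfb2 and between 1.67 and 6.09 of Tgfb3. The 6 fibroblast markers, all detected, summed to 850, 1213, 574 and 1928 CPM in the same macrophages, and their part in these low values was not tested.

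**Figure D1:**
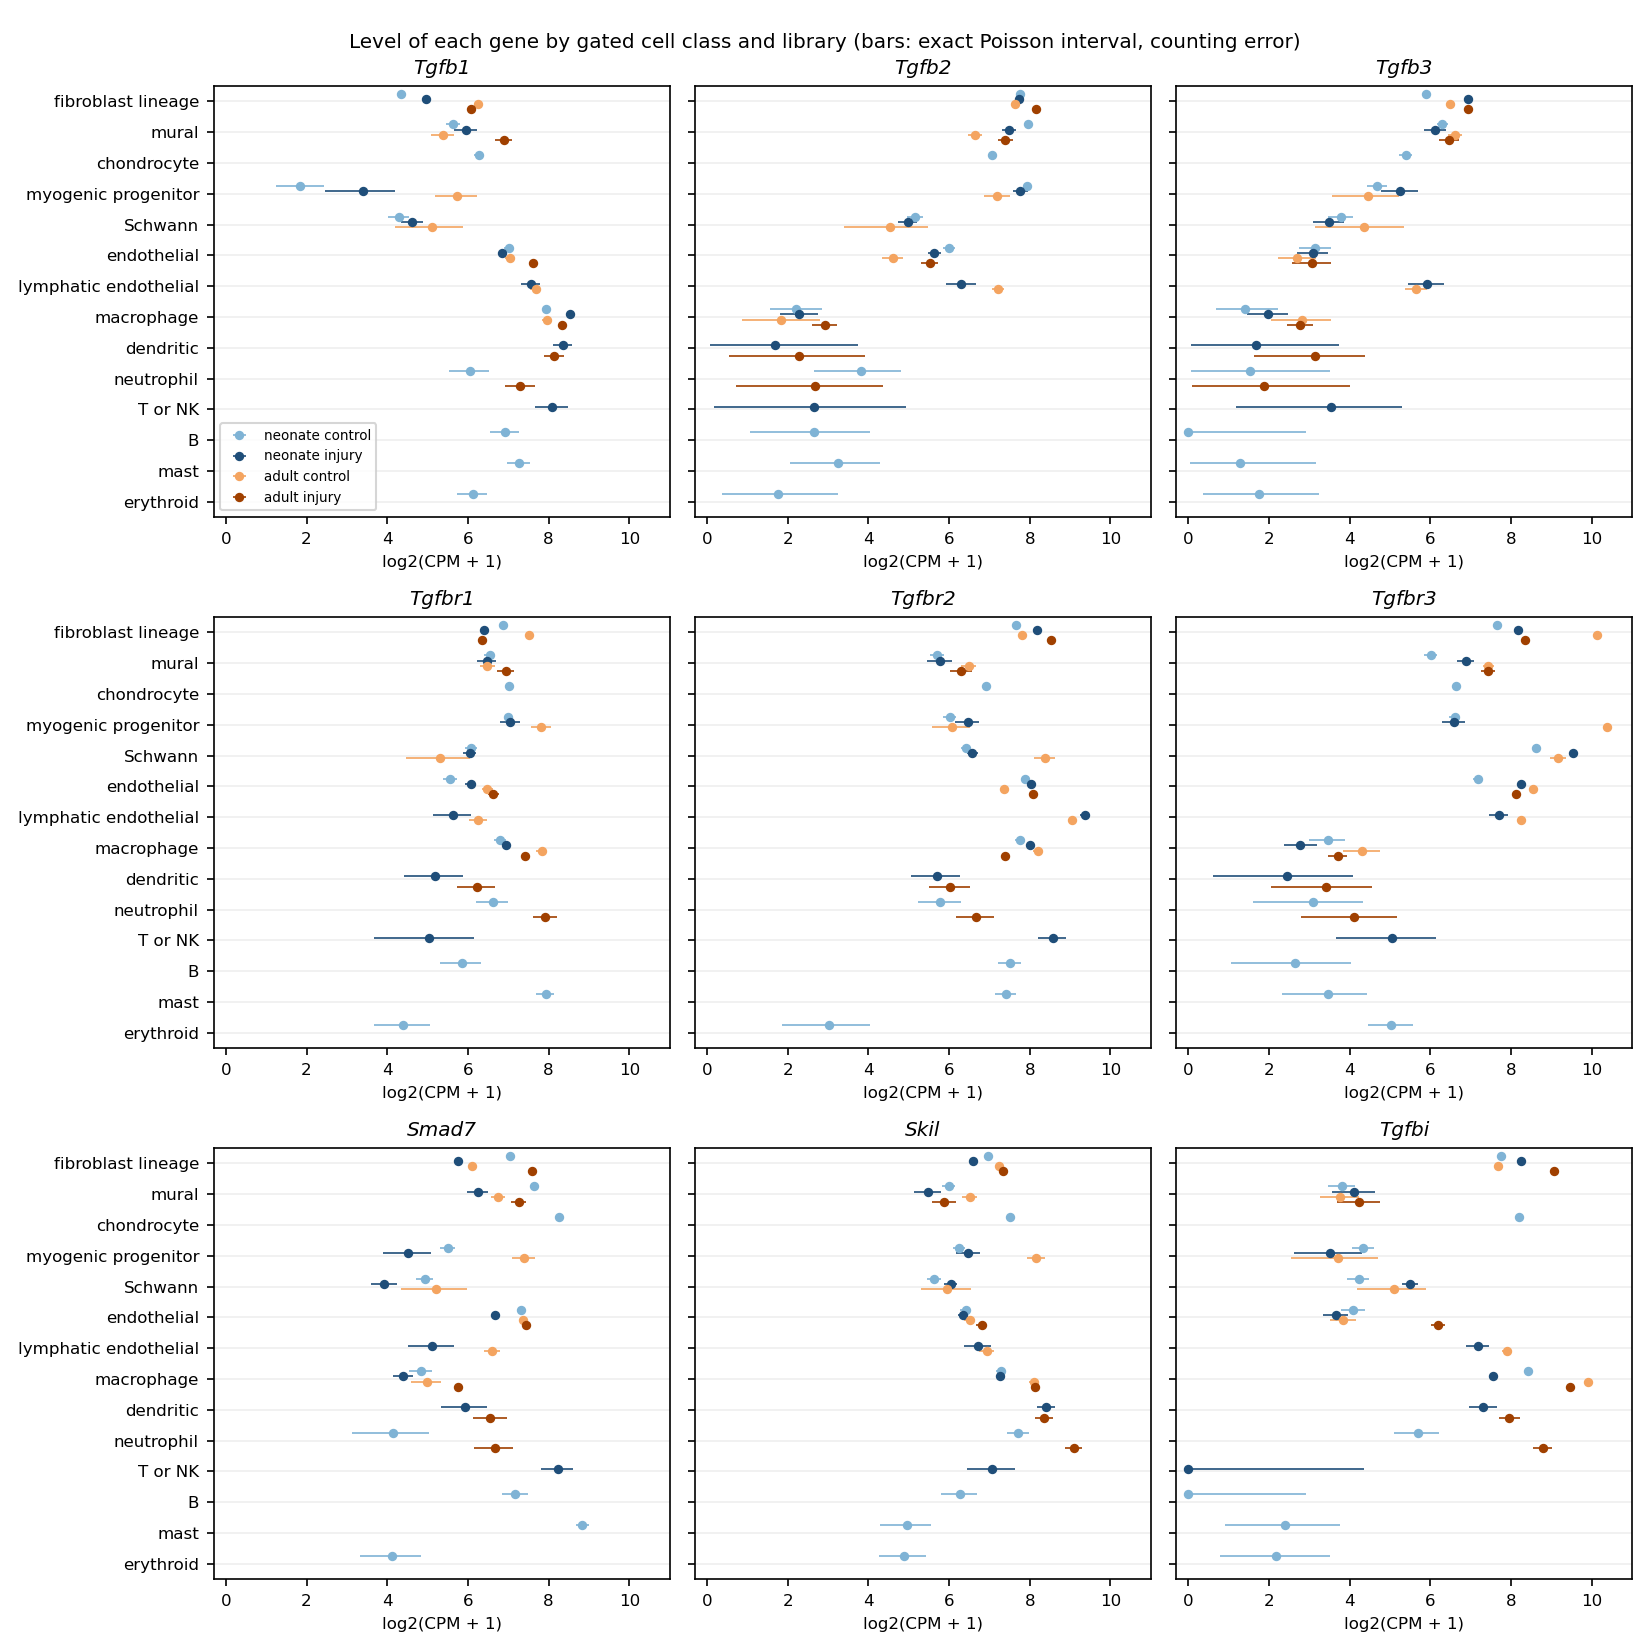
Level of each of the 9 genes as log2(CPM + 1) on the horizontal axis in each gated class of at least 50 cells on the vertical axis, with 1 point per library and bars for exact 95% Poisson intervals. Tgfb1 is highest in macrophages while Tgfb2 and Tgfb3 are near the left edge there, and the Tgfbr3 point of adult control fibroblasts stands at 1113 CPM.

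The class that held most ligand transcripts depended on the number of cells as well as on their level. Of the Tgfb1 UMIs of gated neonate cells, macrophages held 22.3% [21.0, 23.6] without and 45.7% [44.3, 47.0] with injury. The adult shares were 9.52% [8.73, 10.4] and 45.4% [44.3, 46.6]. Macrophages made up 3.79%, 10.9%, 3.23% and 31.7% of gated cells in the same libraries. The fibroblast lineage held 27.0%, 28.5%, 62.0% and 33.5% of Tgfb1. Its share was largest in the adult control. The macrophage percentages of the neonate and adult controls were close, while their fibroblast levels of Tgfb1 were 19.1 and 74.5 CPM. Of Tgfb2 it held 73.6%, 90.5%, 91.2% and 94.5%, and of Tgfb3 76.6%, 95.0%, 90.0% and 94.5%. Among receptors, the macrophage share of Tgfbr1 was 3.99%, 13.1%, 4.81% and 32.2%, and that of Tgfbr2 4.87%, 8.69%, 4.53% and 10.3%. Schwann cells, the glia of peripheral nerve, held 14.2% and 17.3% of Tgfbr3 in the neonate libraries. A share moves with how many cells of each class were recovered, and recovery cannot be told apart here from the makeup of the tissue.

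**Figure D2:**
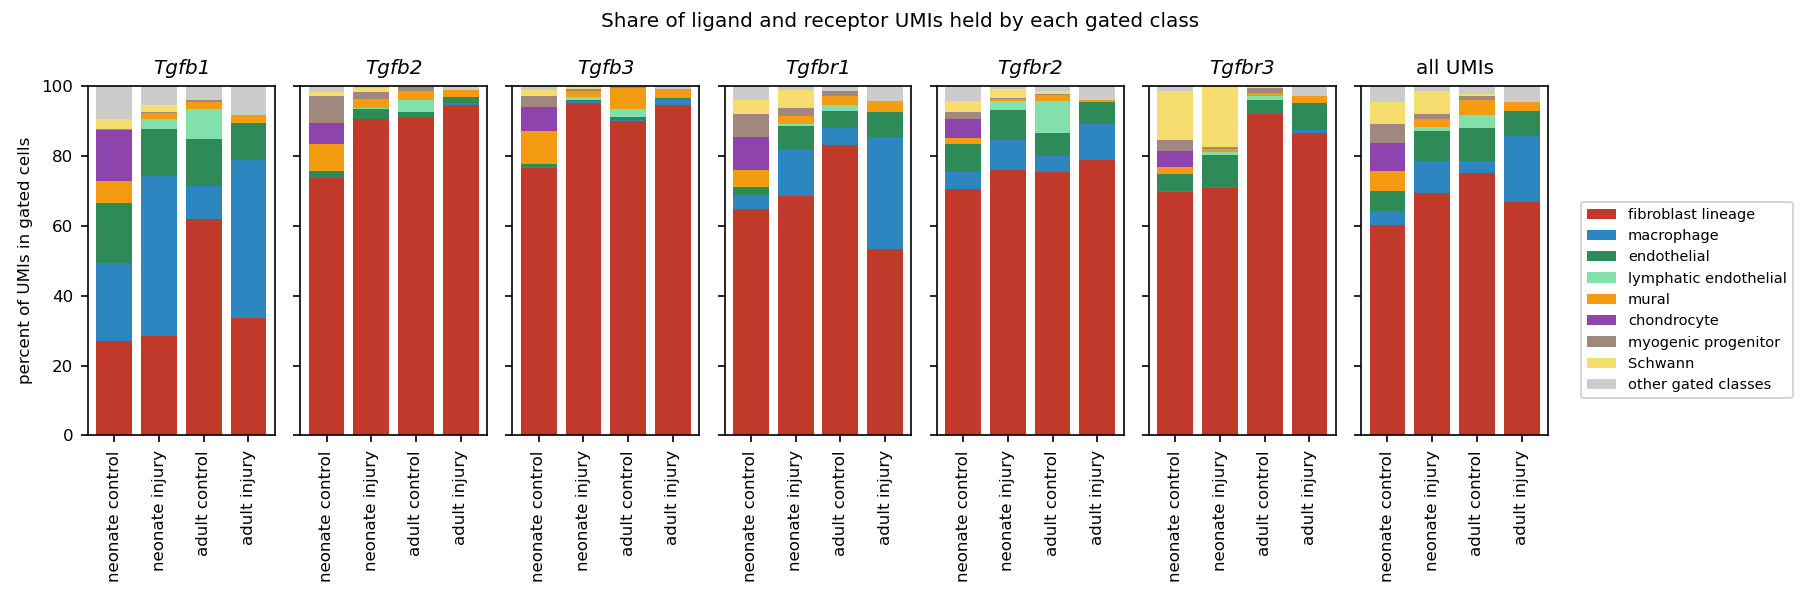
Stacked bars of the percent of each gene's UMIs in gated cells, on the vertical axis, held by each class in the 4 libraries on the horizontal axis, with the share of all UMIs in the last panel. The macrophage part of Tgfb1 is 45.7% and 45.4% in the injured libraries against 22.3% and 9.52% in their controls, and the fibroblast lineage holds at least 73.6% of Tgfb2 in each library.

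Ligand levels in the fibroblast lineage were then compared between libraries, as the log2 ratio of CPM with its exact 95% counting interval. A gene counts as past 2-fold when its ratio is beyond 2-fold in either direction and the pair of libraries together hold at least 50 UMIs. Each control library serves 2 of the comparisons, so these are not independent. Tgfb3 was higher in the neonate injury than in the neonate control library, at a log2 ratio of 1.05 [0.99, 1.11]. It did not pass 2-fold in injured cells that held Y-linked UMIs but not Xist (0.67), in tenocyte-gated cells (0.72) or as the mean of the cells' own CPM (0.92). After adult injury Tgfb3 was at 0.44 [0.37, 0.50]. Tgfb1 had ratios of 0.65 [0.54, 0.77] after neonatal and -0.15 [-0.23, -0.08] after adult injury, and the adult value turned to 0.43 in fibroblasts outside the tenocyte gate. Between the controls Tgfb1 was lower in neonates by a ratio of -1.96 [-2.06, -1.86], a 3.89-fold difference. It stayed past 2-fold in all 9 alternatives tried, the closest being -1.48. A lower UMI minimum, counted among these 9, cannot change a ratio. Tgfb2 had ratios of -0.03, 0.52 and 0.11 in the neonatal injury, adult injury and age comparison, none past 2-fold. In tenocyte-gated cells these were -0.51, 0.95 and 0.95, and in the remaining fibroblasts 0.16, 0.06 and -0.49, so that the neonatal and age ratios turned between them. The 6 macrophage markers summed to 60.1, 154, 113 and 130 CPM in these fibroblasts, with all 6 detected in each library. They move in the same direction as Tgfb1 between the neonate libraries and between the controls, and their part in the result was not tested.

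Of the receptors, Tgfbr2 was highest in lymphatic endothelial cells in the 2 libraries that held at least 50 of them, at 660 CPM [603, 721] in the neonate injury and 531 [501, 563] in the adult control library. In the fibroblast lineage it stood at 202 [198, 206], 289 [284, 294], 224 [220, 229] and 365 [359, 372]. The injured library was the higher of each pair, with ratios of 0.52 [0.48, 0.55] in neonates and 0.71 [0.67, 0.74] in adults, below 2-fold. Mural cells were low, at 50.8 to 88.8 CPM. T or NK cells of the neonate injury library held 378 [295, 477]. Tgfbr1 in the fibroblast lineage was at 116 [113, 119], 83.2 [80.7, 85.8], 180 [176, 184] and 79.9 [77.0, 82.8] CPM, lower in each injured library than in its control. The ratio was -0.48 [-0.54, -0.42] after neonatal injury and -1.17 [-1.24, -1.11] after adult injury, so that fibroblasts of the 2 injured libraries stood at nearly the same level. In macrophages Tgfbr1 was at 110, 123, 226 and 170 CPM, and in mast cells of the neonate control at 242 [207, 281].

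Tgfbr3 had the widest span of the receptors. Fibroblasts of the adult control held 1113 CPM [1103, 1123], against 201 [198, 205] and 286 [281, 291] in control and injured neonates and 325 [319, 331] in injured adults. The adult control thus stood apart from the other 3 libraries. The ratio was -1.77 [-1.80, -1.75] after adult injury and -2.47 [-2.50, -2.44] in neonate against adult controls, which is 5.53-fold. After neonatal injury it was 0.51 [0.47, 0.54], in the opposite direction. In the adult comparison it was -2.37 in tenocyte-gated cells and -1.14 in the remaining fibroblasts, past 2-fold in both. Tenocyte-gated cells were 24.2%, 35.3%, 57.4% and 29.1% of fibroblasts, and the 6 tenocyte markers summed to 1969, 2403, 8033 and 2010 CPM, so the library with the highest Tgfbr3 was also that with the most tenocyte markers. Myogenic progenitors were also high in the adult control, at 1338 CPM [1246, 1436] against 96.2 and 94.7 in the neonate libraries, whose intervals overlap, and numbered 10 cells in the adult injury library. Schwann cells were at 391, 741 and 575 CPM in the 3 libraries where they numbered at least 50.

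Signalling needs both type I and type II receptors in a cell. Cells with UMIs of both were therefore counted after thinning each cell to 3000 UMIs. A cell without a UMI may still transcribe the gene, so these are shares of detection and not of cells able to signal. Cells under 3000 UMIs were left out, 94 of 4786 neonate control and 981 of 7495 neonate injury fibroblasts. Among macrophages these were 3 of 303 and 248 of 1247. In the neonate injury library 270 of 910 endothelial and 106 of 358 mural cells were left out too. In the fibroblast lineage the share was 11.2% [10.3, 12.2], 10.7% [9.94, 11.5], 14.6% [13.4, 15.9] and 14.3% [12.6, 16.2]. Intervals overlapped within each age. Before thinning these shares were 48.9%, 28.4%, 51.9% and 59.1%. Macrophages had 13.0% [9.41, 17.3], 12.7% [10.7, 14.9], 25.0% [18.4, 32.6] and 14.6% [12.5, 16.9], where the adult control of 156 thinned cells was above the injured adult library. Endothelial cells had 6.23% [3.73, 9.67], 8.12% [6.13, 10.5], 6.32% [4.53, 8.54] and 10.5% [7.08, 14.8], with overlapping intervals. Mural cells had the lowest shares, at 2.26% [1.17, 3.91], 4.37% [2.20, 7.68], 4.05% [2.11, 6.97] and 4.08% [1.12, 10.1]. These intervals overlap those of endothelial cells in each library. For comparison, Tgfb3, which was low in macrophages, had a UMI in 0.801% of thinned macrophages from injured neonates, 0.874% from injured adults and 2.56% [0.703, 6.43] from adult controls. It had none in 300 cells of the neonate control, where the exact interval reaches 1.22%.

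Among the genes that answer to the pathway, Smad7 differed in opposite directions after injury at the 2 ages. Smad7 encodes the inhibitory SMAD that blocks the type I receptor and is itself induced by TGF-beta. Its level in the fibroblast lineage was 131 CPM [128, 134] in control and 53.1 [51.1, 55.2] in injured neonates. In adults it was 67.6 [65.1, 70.1] in the control and 191 [186, 195] after injury. The injured library was thus the lower of the neonate pair, with a ratio of -1.30 [-1.37, -1.24], and the higher of the adult pair, at 1.50 [1.43, 1.56]. All 10 alternatives of the neonatal and all 9 of the adult comparison stayed past 2-fold, from -1.61 to -1.09 and from 1.29 to 1.53. Each set counts a lower UMI minimum, which cannot change a ratio. Mural cells showed the same pattern, with 199, 74.8, 106 and 153 CPM and ratios of -1.41 [-1.69, -1.14] and 0.53 [0.27, 0.79]. The highest levels of Smad7 were in mast cells at 457 [408, 510] and in chondrocytes, the cartilage cells, at 303 [291, 316], both of the neonate control. Between the controls the fibroblast ratio of Smad7 was 0.95 [0.89, 1.02], and it was 1.19 in tenocyte-gated cells.

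Skil, whose product SnoN represses SMAD complexes on their targets, differed little in the fibroblast lineage, at 124, 96.4, 149 and 160 CPM. Its ratios were -0.37 [-0.42, -0.31] and 0.10 [0.05, 0.15] after neonatal and adult injury and -0.27 [-0.32, -0.22] between controls. It was higher in myeloid cells, with 544 CPM [471, 625] in neutrophils of the adult injury library. Dendritic-gated cells, with the limit of their gate given above, held 338 and 328 in the 2 injured libraries. Tgfbi, a matrix protein that binds collagen and integrins, was at 214 [210, 218], 303 [298, 308], 205 [201, 209] and 537 [530, 545] CPM in the fibroblast lineage. The adult injury library was the highest, with a ratio of 1.39 [1.35, 1.43] that ranged from 1.12 to 1.68 over the alternatives. After neonatal injury it was 0.50 [0.47, 0.54] and turned to -0.17 in tenocyte-gated cells. Between the controls it was 0.06 [0.02, 0.10], made of 1.26 in tenocyte-gated cells and -0.66 in the remaining fibroblasts. Macrophages held 342, 188, 956 and 705 CPM of Tgfbi and were above the fibroblast lineage in each library but the neonate injury.

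Of the 9 genes, all with at least 50 UMIs, 1 was past 2-fold higher (Tgfb3) and 1 lower (Smad7) in fibroblasts after neonatal injury. Among all 16242 genes with as many UMIs, 9.44% were higher and 10.7% lower. After adult injury 2 were higher (Smad7 and Tgfbi) and 2 lower (Tgfbr1 and Tgfbr3), against 16.7% and 14.9% of 15157 genes. In the neonate against the adult control, no gene of the 9 was higher and 2 were lower (Tgfb1 and Tgfbr3), against 17.7% and 12.3% of 15900 genes. The median ratio of the 9 was 0.50, 0.44 and -0.27 in these comparisons, and that of all genes -0.04, 0.04 and 0.12. Counts of 0 to 2 of 9 genes in a direction set nothing apart from these background shares. Adult fibroblasts fell mostly in different expression clusters, with 44.8% of the control in cluster 21 and 38.2% in cluster 32, and 68.5% of the injured cells in cluster 10. The neonate libraries shared some clusters, with 24.2% of control and 22.6% of injured fibroblasts in cluster 8 and 15.4% and 12.3% in cluster 9. Other clusters were uneven, with 32.0% and 7.27% in cluster 20 and 6.23% and 16.8% in cluster 1. Clusters 2 and 11, led by fibroblasts, held 89 and 19 cells of the neonate control. From the neonate injury library they held 1162 and 1137.

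**Figure D3:**
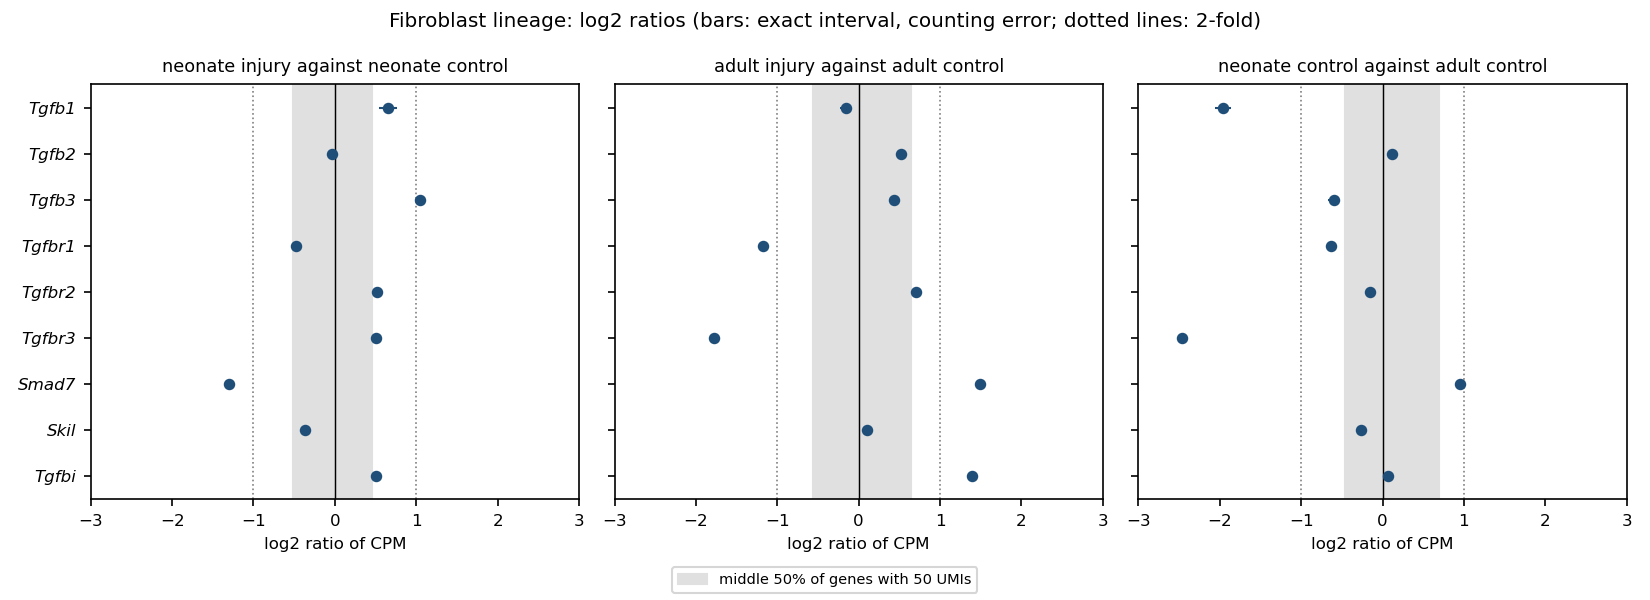
Log2 ratio of CPM on the horizontal axis for each of the 9 genes on the vertical axis in the fibroblast lineage, with 1 panel per comparison, bars for exact 95% counting intervals, dotted lines at 2-fold and a grey band for the middle 50% of genes. Smad7 lies at -1.30 in the neonatal and 1.50 in the adult injury panel, and Tgfbr3 at -1.77 and -2.47 in the panels that use the adult control.

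Within the fibroblast lineage, 3 genes differed in the same direction and beyond their counting intervals in all 4 libraries between cells inside and outside the tenocyte gate, which used none of the 9. The share of all genes that meet this rule was not counted, so the number does not set these genes apart. Tgfb3 was higher inside it, at 98.4, 162, 117 and 160 CPM against 47.1, 96.0, 48.5 and 96.8 outside. Tgfbr1 was also higher inside, at 162, 91.6, 193 and 86.9 CPM against 103, 77.8, 161 and 75.7. Tgfbr2 was lower inside, at 172, 216, 150 and 253 CPM against 211, 336, 332 and 432. The type I and type II receptors thus leaned to opposite sides of the gate. Tgfb1 was higher in tenocyte-gated cells too, at 25.2, 37.2, 92.7 and 70.8 CPM against 17.3, 25.5, 48.2 and 64.8, with intervals that overlap in the adult injury library. Tgfb2 had no common direction, at 287, 201, 148 and 286 against 193, 216, 271 and 283. Median depth inside the gate was 9819.5, 6712, 12198 and 25217 UMIs against 11052, 5695.5, 11065.5 and 16740 outside.

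Lrrc15, a surface marker of TGF-beta-stimulated fibroblasts, split the fibroblasts of the adult injury library into 1147 cells with a UMI and 591 without, at median depths of 23872 and 8949 UMIs. The split is thus in part one of depth. Positive cells held 587 CPM [578, 595] of Tgfbi against 324 [311, 337], and 201 [196, 207] of Smad7 against 144 [136, 154]. Tgfbr3 was lower in them, at 299 [293, 306] against 436 [420, 452]. Tgfb1 in these adult cells had overlapping intervals, at 67.1 [64.2, 70.1] and 66.8 [60.9, 73.1]. In the neonate injury library the 1618 positive cells, with a median depth of 8513.5 UMIs against 5513, also held more Tgfbi (379 against 272 CPM) and more Smad7 (63.7 against 48.8). The intervals of Tgfb1 did not overlap there, at 41.1 [37.8, 44.5] against 25.6 [24.0, 27.3]. In both subsets of the adult injury library Smad7 was above its level in adult control fibroblasts.

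In macrophages none of the 7 genes with at least 50 UMIs was past 2-fold after neonatal injury, against 15.8% of all genes in either direction. Smad7, at -0.46 [-0.84, -0.06], passed it at -1.30 in the 233 injured macrophages that held Y-linked UMIs but not Xist. Tgfb1 was at a ratio of 0.62 [0.50, 0.73] and Tgfbi at -0.87 [-0.98, -0.75]. After adult injury 1 of 9 was past 2-fold, against 22.3% of genes. It was Tgfb2, at 1.24 [0.07, 3.03], which rested on 5 and 69 UMIs and was at -0.05 with doublets kept. Tgfb1 was at 0.36 [0.23, 0.50] and Tgfbr2 at -0.80 [-0.94, -0.66], from 292 CPM [268, 317] in the control to 167 [160, 175] in the injured library. In the neonate against the adult control, 2 of 7 were lower, Tgfbi at -1.48 [-1.59, -1.38] and Tgfbr1 at -1.04 [-1.24, -0.84], against 19.4% of genes in either direction. The Tgfbr1 ratio was -0.90 with classes taken from clusters. The macrophages of the adult libraries shared clusters in different proportions. Of the control cells 86.1% were in cluster 14 and 12.7% in cluster 27, and of the injured cells 24.0% were in cluster 14, 31.9% in cluster 27 and 39.8% in cluster 13. Within the neonate injury library, 243 macrophages with Gpnmb, a lysosomal gene of lipid-laden macrophages, and no UMI of Folr2, a resident macrophage marker, held 157 CPM [137, 179] of Tgfbr1. The 516 with Folr2 and no Gpnmb held 62.8 [53.7, 72.9]. Tgfbr2 had the reverse order, at 180 [159, 204] against 318 [297, 339]. Tgfb1 was at 381 [350, 415] and 361 [339, 384], with overlapping intervals. In the adult injury library the same split gave 190 [171, 209] against 130 [117, 145] CPM of Tgfbr1 and 161 [145, 180] against 197 [180, 215] of Tgfbr2.

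Endothelial cells had 1 of 9 genes past 2-fold after neonatal injury, Tgfbr3 at 1.08 [0.96, 1.20], against 11.8% of genes in either direction. Its levels were 143, 303, 374 and 279 CPM, and the mean of the cells' own CPM gave 0.92. After adult injury 1 of 9 was past 2-fold, against 15.6%. This was Tgfbi at 2.43 [2.05, 2.83], from 13.3 CPM in the control to 72.1 in the injured library, while the neonate libraries held 16.0 and 11.6. With a stricter gate its ratio was 1.47. Adult control endothelial cells were 89.6% in cluster 16 and 4.71% in cluster 15, and those of the injured library 50.6% and 41.9%. The fibroblast markers in these endothelial cells summed to 1116, 1098, 783 and 1217 CPM, and their part in the result was not tested. Between the controls 2 of 9 were past 2-fold, Tgfb2 higher at 1.43 [1.13, 1.75] and Tgfbr3 lower at -1.39 [-1.51, -1.26] in neonates, against 27.3%. Tgfb2 was at 0.76 there with doublets kept, and Tgfbr3 at -0.99 as the mean of the cells' own CPM. The neonate control cells lay mostly in cluster 15 (92.4%), unlike those of the adult control.

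Mural cells fell in 1 cluster in all 4 libraries (96.3% to 99.3%). After neonatal injury 1 of 9 genes was past 2-fold, the Smad7 given above, against 10.5% of genes in either direction. After adult injury it was Tgfb1, at 40.7 CPM [33.2, 49.3] in the control and 117 [101, 136] in the injured library, a ratio of 1.52 [1.17, 1.89], against 24.9% of genes. The neonate libraries held 48.8 and 60.9 CPM of Tgfb1. Between the controls Tgfb2 was higher at 1.30 [1.11, 1.50] and Tgfbr3 lower at -1.44 [-1.65, -1.23] in neonates, 2 of 9 against 22.3%. Tgfbr3 was thus lower in the neonate than in the adult control by over 2-fold in fibroblasts, endothelial and mural cells. The fibroblast markers in mural cells summed to 4174, 6790, 2407 and 9770 CPM, highest in the injured libraries, and the macrophage markers to 91.8, 135, 57.2 and 109. Endothelial markers in them summed to 194, 282, 105 and 568 CPM, so they were higher with adult injury in the same direction as Tgfb1, which endothelial cells hold at 130 and 194 CPM in the adult libraries. All 6 endothelial markers were detected in each library. Their part in these ratios was not tested. The adult injury library held 107 mural cells.

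**Figure D4:**
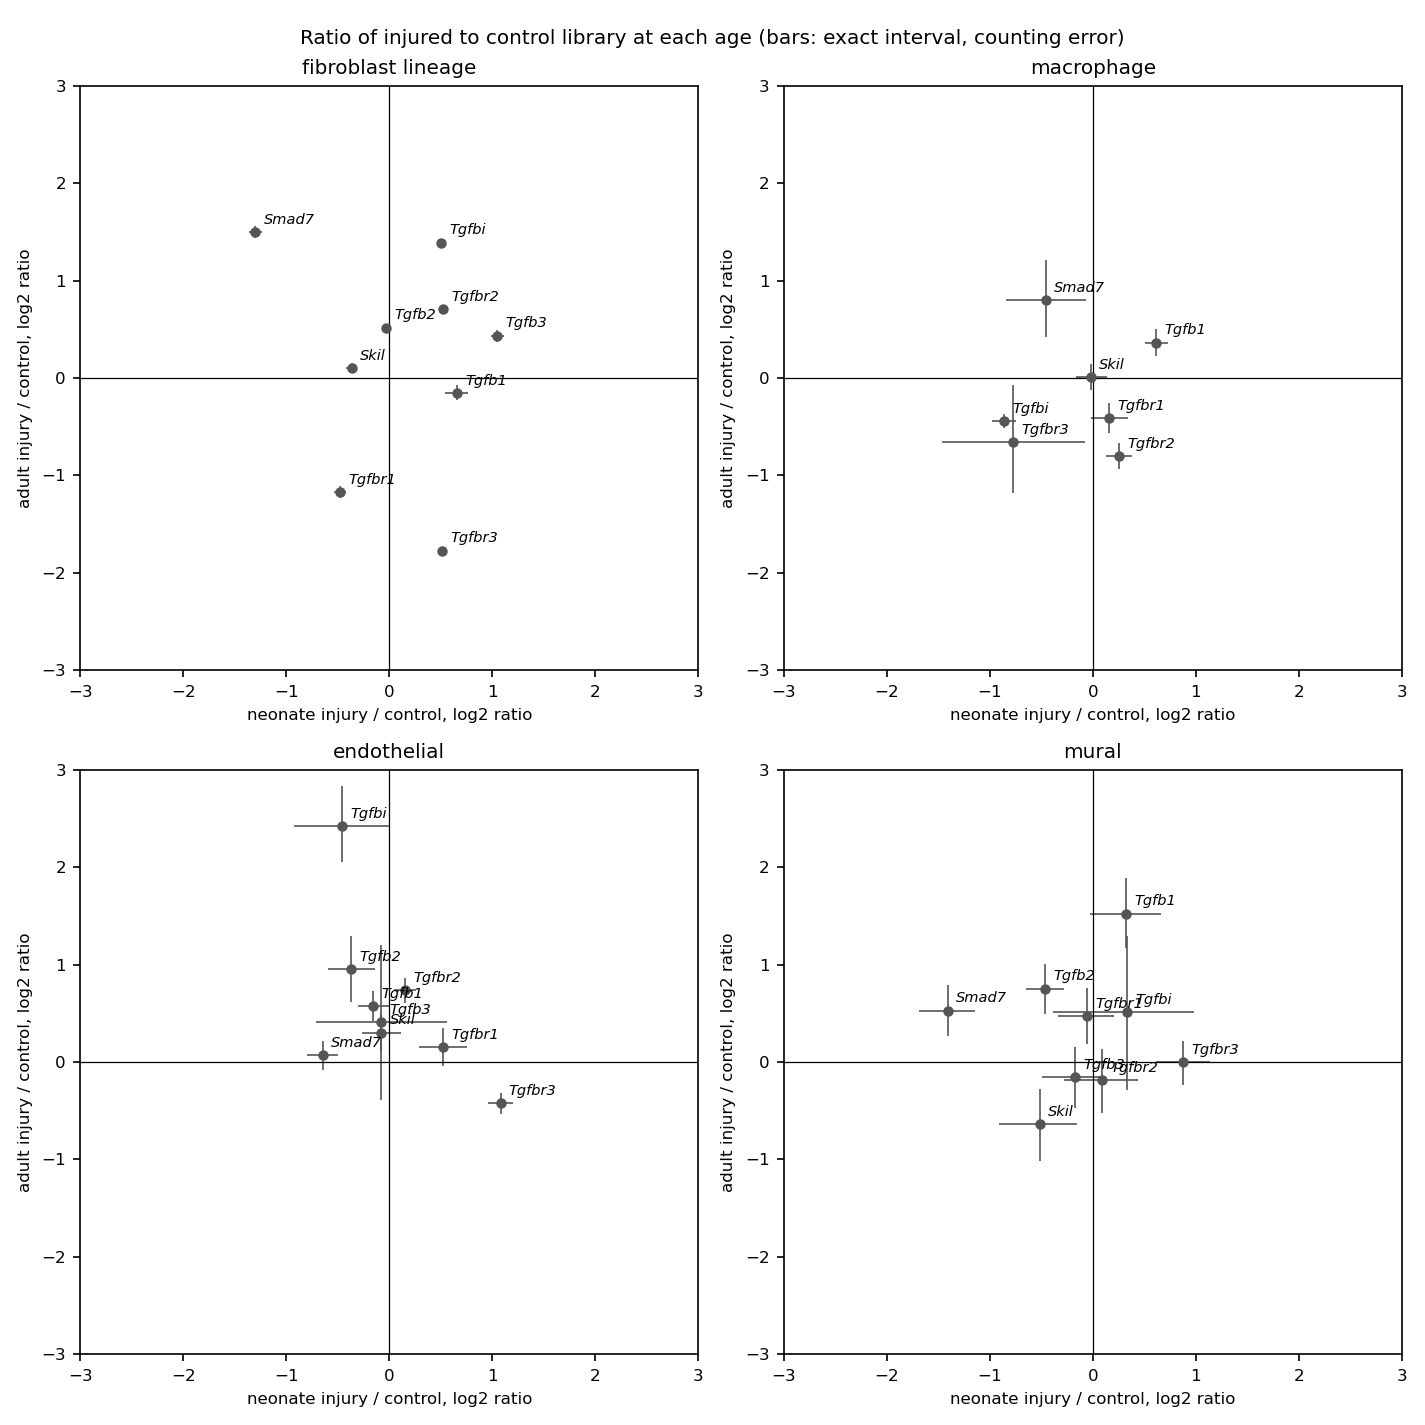
Log2 ratio of injured to control library in neonates on the horizontal axis and in adults on the vertical axis for each gene in 4 cell classes, with exact 95% counting intervals as bars and without Tgfb2 and Tgfb3 in macrophages. Smad7 lies to the left of 0 in each panel and above 0 in each, with an interval that crosses 0 for adult endothelial cells, at -1.30 and 1.50 in the fibroblast lineage, and Tgfbr3 of fibroblasts and endothelial cells lies to the right of and below 0.

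The surrounding pathway was read in the fibroblast lineage from 5 lists of 60 genes in all. Of the 18 genes that hold ligands latent or activate them, 17 had enough UMIs in the neonatal comparison, with 4 past 2-fold higher, none lower and a median ratio of 0.32, against 9.44% of all genes higher and 10.7% lower. They were Mmp2 (1.82), Itgb6 (1.45), Mmp14 (1.20) and Furin (1.18), which encode 2 matrix metalloproteinases, an integrin chain that activates latent TGF-beta, and the convertase that cleaves its propeptide. After adult injury 8 of 18 were higher and 2 lower, with a median of 0.90, against 16.7% and 14.9% of all genes. Mmp14, a membrane-bound metalloproteinase, was at 106 CPM in the adult control and 909 in the injured library, a ratio of 3.10 [3.06, 3.15]. Lrrc32, whose product GARP tethers latent ligand to the cell surface, was at 3.96 and 34.9 CPM (3.14 [2.91, 3.38]). Itgb6 was at 0.609 and 6.49 CPM (3.39 [2.83, 4.06]), and Mmp9 had a ratio of 8.14 [6.24, 14.03] that rests on a control level of 0.0234 CPM. Ltbp4, a latent TGF-beta binding protein, was 1 of the 2 lower genes, at 376 CPM in the control and 92.3 in the injured library (-2.03). Between the controls 2 of 17 were higher and 1 lower in neonates, against 17.7% and 12.3% of all genes. Nrros, which anchors latent ligand on myeloid cells, was at 1.76 and near the floor, with 1.14 CPM in neonates and 0.328 in adults. Mmp14 was at 1.23 and Ltbp2, a latent TGF-beta binding protein relative, at -1.84. Ltbp4 was chosen for mention after its values were seen.

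The 6 receptor partners and SMAD transducers stayed within 2-fold in the neonatal and age comparisons, with medians of -0.33 and 0.16. Smad2, a transducer, was lower after neonatal injury at -0.74 and higher in the neonate control at 0.78. After adult injury 1 of 6 was lower, Zfyve9, a SMAD anchor, at -1.01 [-1.10, -0.93]. Of the 7 other inhibitors 1 was higher after neonatal injury, Pmepa1, a TGF-beta-induced feedback inhibitor, from 179 to 398 CPM (1.15 [1.12, 1.19]). It thus had the direction opposite to Smad7 in the same fibroblasts. Pmepa1 was at 430 CPM in the adult control and 800 in the injured library (0.89 [0.87, 0.92]). Bambi, a decoy receptor, and Smad6, an inhibitory SMAD that acts mainly on BMP signals, were the 2 lower after adult injury, at -1.64 and -1.13. In the neonate control Smad6 (-1.66) and Pmepa1 (-1.26) were the 2 lower. The shares of all genes given for the latency list are the background of these counts too. The medians of the inhibitors were -0.01, -0.03 and -0.28 for neonatal injury, adult injury and age.

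Of 9 other ligands, receptors and antagonists that act through SMAD2 and SMAD3, 1 was higher after neonatal injury, Mstn (myostatin), at 1.12 and 14.4 CPM (3.67 [3.30, 4.08]). After adult injury Gdf11 (2.70), a close relative of myostatin, and Acvr1b (1.76), an activin receptor, were higher, and Inhbb (-2.09), an activin chain, and Mstn (-1.22) lower. In the neonate control 2 were higher and 4 lower of these 9, among them Fst, the activin antagonist follistatin, at 1.51 and Inhbb at -3.79. The medians were 0.41, 0.19 and -0.86. Of 20 genes widely used as TGF-beta targets, 6 were higher and 2 lower after neonatal injury, with a median of 0.40, beside the 9.44% and 10.7% of all genes. The 4 with the largest ratios were Itga11 (1.71), Lrrc15 (1.68), Cdkn2b (1.57) and Col1a1 (1.51). Col1a1 and Col1a2, both on the target list, are also among the 6 markers of the fibroblast gate. Their ratios are thus read in cells selected partly on these same genes, and they enter the counts and medians of the targets. The effect of this overlap was not tested. After adult injury 9 were higher and 4 lower, with a median of 0.80, beside 16.7% and 14.9%. Lrrc15 was at 1.69 and 275 CPM (7.34 [7.01, 7.70]), Cthrc1, a secreted protein of matrix-producing fibroblasts, at 32.1 and 958 (4.90 [4.82, 4.98]), and Postn, the matrix protein periostin, at 401 and 5118 (3.67 [3.65, 3.70]). Comp, a tendon matrix protein, was lower, at 2240 and 121 CPM (-4.21 [-4.26, -4.17]). In the neonate control 3 targets were higher and 5 lower, beside 17.7% and 12.3%, with a median of -0.14, and Cthrc1 at 4.99, Lrrc15 at 3.89, Nox4 at -4.56 and Comp at -5.77. Targets therefore went both ways in each comparison. None of these lists was tested as a set.

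Macrophages of the adult injury library also differed from their control in the genes that activate the ligand, and the genes given here were chosen after their values were seen. Of 15 latency and activation genes with at least 50 UMIs, 11 were past 2-fold higher and 1 lower, against 22.3% of all genes in either direction. The median ratio was 1.46. Ltbp1 and Itgb3 had no UMI in the control. A floor of 3 counts leaves both above the median, so it could not move the median and is no check of it. Thbs1, which encodes the activator thrombospondin, was at 6.09 CPM in the control and 706 in the injured library, a ratio of 6.80 [6.05, 7.81]. Mmp14 was at 7.61 and 349 CPM. In the neonate libraries Mmp14 was at 8.64 and 91.6 CPM in macrophages. Fibroblast markers in the adult macrophages summed to 574 CPM in the control and 1928 in the injured library, and their part in these ratios was not tested.

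Likeness of pattern was measured by Pearson's r of log2(CPM + 1) over 25 sums of a class in a library, which share libraries and depth and are not independent, among 8358 genes. Of the 9 genes with each other, Tgfb2 and Tgfb3 were most alike (r = 0.88), while Tgfb1 and Tgfb2 ran opposite (r = -0.59). The 3 genes most like Tgfb1 were Acsl5 (0.91), H2-K1 (0.88) and Fli1 (0.88). Those most like Tgfb2 were Farp1 (0.94), Zfp503 (0.93) and Rbfox2 (0.92), and those most like Tgfb3 were Cacna2d1 (0.94), Zfp503 (0.91) and Setbp1 (0.90). For Tgfbr1 they were Eea1 (0.84), Ttc7 (0.81) and Camkk2 (0.78), for Tgfbr2 Hsd3b7 (0.85), Scamp1 (0.82) and Rab11fip5 (0.81), and for Tgfbr3 Zfp462 (0.93), Myo6 (0.91) and Sh3d19 (0.91). Smad7 was most like Tmem184b (0.80), Hif1a (0.80) and Cyp26b1 (0.79), Skil most like Tlr2 (0.89), Fuca2 (0.87) and Fbxo11 (0.86), and Tgfbi most like 4933406I18Rik (0.86), Sulf2 (0.86) and Arsb (0.82). Zfp503 is among the 3 most like genes of both Tgfb2 and Tgfb3.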

How the data were processed

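Droplet single-cell RNA libraries of mouse Achilles tendon were deposited by the authors as filtered matrices of UMI counts per gene and cell, which name Cell Ranger 8.0.1 (per the file headers) and were made against GRCm39 per the submitters' processing notes. The other settings are not given in the sources used here. Library totals ran from 68644322 to 128626912 UMIs. Barcodes under 500 genes or 1000 UMIs, or with over 15% mitochondrial UMIs, were dropped. The barcodes with the highest Scrublet doublet scores were then removed at a rate of 0.8% per 1000 barcodes. A cell belonged to a class when at least 3 of its 6 markers were present and fibroblast markers were at most 2% of its UMIs. Where another class also had at least 3 markers, the leading class needed at least 2 more. Cells that passed only the endothelial and lymphatic endothelial lists were called lymphatic endothelial. The fibroblast lineage needed 4 of 6 markers, at least 1% of UMIs and no other class. The gate was tuned with the data in view. The members and the gene lists were chosen with earlier results of these data known. Leiden clusters (resolution 1, 2000 variable genes without the 9 members, 30 components, 15 neighbours) served as an alternative class.

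For each class and library the counts of all cells were added up and divided by their total, per 1e+06 UMIs (CPM), with exact Poisson intervals. Ratios of libraries have exact binomial intervals and a prior of 0.5 counts per library. Both cover counting error only and not the spread between animals, since each group held 1 library. The ratio calculation was tested on simulated data. Genes named are the 9 members and, from each of 5 lists, up to 4 with the largest absolute ratio in fibroblasts in each comparison. In addition 3 genes were chosen by likeness for each member. Alternatives were a stricter cell filter, doublets kept, a stricter gate, classes from clusters, median-of-ratios scaling, the mean of the cells' own CPM, a minimum of 10 UMIs, cells with Y-linked UMIs in the neonate injury library, fibroblasts split by the tenocyte gate, and thinning to 2000 UMIs. Those of the macrophage share of Tgfb1 were chosen after seeing the data. Analyses used Python 3.11.15, scanpy 1.11.5, numpy 2.4.6, scipy 1.17.1 and pandas 2.3.3.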

Additional observations from a re-analysis of the deposited data

Results flagged for a closer look

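For 11 pairs of gene and cell class the injured library lay on opposite sides of its control at the 2 ages, with both counting intervals clear of 0. The share of all genes that meet this rule was not counted, so the number sets nothing apart. The neonatal interval of endothelial Tgfb1 ended at -0.001. The adult ratio of fibroblast Tgfb1 turned to 0.43 outside the tenocyte gate. The neonate pair also differed in Xist and Y-linked UMIs, while both adult libraries held mostly cells with Xist. The difference between ages was not tested, since each group held 1 library. It is given as the neonatal log2 ratio of injury to control minus the adult one. In the fibroblast lineage it was 0.81 for Tgfb1, 2.28 for Tgfbr3, -2.8 for Smad7 and -0.47 for Skil. In macrophages it was 1.06 for Tgfbr2 and -1.26 for Smad7. In endothelial cells it was -0.73 for Tgfb1, -1.32 for Tgfb2 and 1.5 for Tgfbr3, and in mural cells -1.21 for Tgfb2 and -1.93 for Smad7. Smad7 therefore differed in this way in 3 of the 4 classes, and Tgfbr3 in fibroblasts and endothelial cells.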

How the results depend on the processing

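No paired analysis was possible because each group held 1 library. Of 108 ratios, none moved beyond its counting interval with the stricter cell filter. A minimum of 10 UMIs changes only which genes are counted, so it could move no ratio. With a stricter gate 24 moved, with classes from clusters 13, with median-of-ratios scaling 19 and with the mean of the cells' own CPM 32. More moved with subsets of cells, 18 of 36 in injured neonate cells holding Y-linked UMIs but not Xist, 23 of 27 in tenocyte-gated fibroblasts and 22 of 27 in the remaining fibroblasts. With doublets kept 8 moved, and Tgfb2 in macrophages after adult injury reversed to -0.053. The median-of-ratios scaling shifted macrophage ratios by -0.13, -0.18 and -0.11 in the neonatal, adult and age comparisons and mural ratios by 0.24 after adult injury, on the log2 scale. Counts of the 9 genes past 2-fold that moved by over 1.5 times were as follows. With doublets kept, endothelial cells had 1 between controls and mural cells 2 after adult injury. Macrophages had 1 between controls with the stricter gate, with clusters and with median-of-ratios scaling, and mural cells 2 after adult injury with clusters. By mean CPM, fibroblasts had 1 after neonatal injury, and endothelial cells 0 after neonatal injury, 3 after adult injury and 1 between controls. In injured neonate cells that held Y-linked UMIs but not Xist, fibroblasts and macrophages had 1 and endothelial and mural cells 2. Tenocyte-gated cells had 1 after neonatal injury and 4 between controls. The macrophage share of Tgfb1 was 20.1% in the neonate control with clusters, and in the neonate injury library 43.0% with doublets kept, 43.7% with the stricter gate and 47.8% with clusters. In the adult control it was 10.8% with the stricter gate and 11.4% with clusters, and in the adult injury library 42.0% with the stricter gate. Thinned to 2000 UMIs, the shares of cells with both receptors were 6.13%, 5.87%, 8.32% and 7.36% in fibroblasts, 6.95%, 7.47%, 15.2% and 6.60% in macrophages and 3.18%, 4.63%, 2.53% and 6.95% in endothelial cells, in the order used above, lower by construction since fewer UMIs were drawn. For the other settings the cause was not tested. Genes with few UMIs in a class, such as Tgfb2 and Tgfb3 in macrophages, are limited by depth.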

Other observations

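Neutrophils reached 50 cells in the neonate control and the adult injury library only, so they entered no comparison between an injured library and its own control. Their levels in these libraries were 65.4 CPM [45.6, 91.0] and 157 [119, 203] for Tgfb1, 50.5 [33.3, 73.5] and 441 [376, 514] for Tgfbi, and 16.8 [7.70, 32.0] and 100.1 [70.5, 138] for Smad7. Chondrocytes, present in the neonate control alone at this number, held 76.8 CPM [70.7, 83.5] of Tgfb1, 133 [125, 142] of Tgfb2, 41.0 [36.5, 45.9] of Tgfb3 and 294 [281, 306] of Tgfbi.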
